A study of Drosophila melanogaster with 5 samples.

Results

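The leucine-rich-repeat surface proteins Tartan (trn, CG11280) and Gp150 (CG5820) were followed in a subtracted cDNA library of the early Drosophila melanogaster embryo. The study built this library to enrich for cDNAs higher in the gastrula than in the syncytial blastoderm, so its clones were selected for such a rise. The members were the library spots named trn or Gp150, which are 2 of the 259 genes printed on the membranes. The name Trn, with a capital, belongs to CG7398 (Tnpo in RefSeq), a different gene that was not a member. Whole, untreated embryos of the Canton S wild type were hand-selected by morphology at 5 intervals, named after their stages, and their RNA was pooled. The syncytial blastoderm is S2-3, the cellular blastoderm is S5, gastrulation is S6-7, and S8-9 followed by S10-12 cover the time after it. Each interval was deposited as 1 sample with 4 nylon membranes, A to D, hybridized with 32P-labeled SMART cDNA, which gave 20 membranes. A p-value here measures only the spread between membranes, which may be technical. In whole embryos, a change in the number of cells that express a gene and a change in RNA per cell cannot be told apart.

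Leucine-rich repeats form curved protein surfaces that bind other proteins, and many cell surface receptors carry them outside the cell. Tartan is a transmembrane protein of this kind, closely related to Capricious, and is known for its part in cell affinity, cell boundaries and the polarity of cells in the extending germband. Gp150 is a transmembrane glycoprotein with leucine-rich repeats that is phosphorylated on tyrosine, is a substrate of the receptor tyrosine phosphatase Ptp10D, and is known for modulating Notch signaling in the developing eye.

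Levels were net intensities divided by the median net intensity of RP49, a ribosomal protein gene spotted on every membrane as a housekeeping control, and are given as log2 values, so that 0 equals the RP49 signal of that membrane. A spot counted only when its signal reached the local background mean plus 1 background SD, and duplicates only when their coefficient of variation was 0.5 or less. Between 22.7% and 94.4% of the library spots of a membrane passed the signal rule, and the RP49 median ranged from 0.0128 to 0.669 in the scanner's arbitrary units. The spots of the control serendipity α, a gene of cellularization, passed in 0, 16, 17, 4 and 0 of 30 in stage order, from the syncytial blastoderm on. The spots of twist, a mesoderm gene, passed in 5, 16, 19, 12 and 8 of 34 in the same order.

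Clone 10_F10 stood for trn on every membrane in duplicate, and membrane D carried 2 further clones of trn, 25_D06 and 26_F06. Gp150 was printed as 1 clone, 25_D05, on all membranes. Of the 60 spots of trn 41 passed the signal rule, and of the 40 spots of Gp150 38 did. The spots of trn that failed lay mostly at S2-3, where 7 of 12 failed, and at S8-9, where 7 of 12 failed as well. All 12 passed at S6-7. For Gp150, 1 of 8 spots failed at S2-3 and 1 at S5, and none at the later intervals.

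At S2-3, trn was at -3.88, -3.02 and -1.98 on membranes A, B and C, and all 6 of its spots on membrane D were under the signal rule. At S5 it was at -3.54, -2.41 and -3.47 on A, B and C and at 0.60 on D. The values of A, B and C at S5 thus lay within the range they had at S2-3, while membrane D stood far above them. At S6-7 the level of trn was -1.39 on A, -2.16 on B, -2.83 on C and 0.42 on D, and the mean of the 4 membranes was -1.49 ± 1.40 (SD, n = 4). At S8-9 trn had a usable value on membrane D alone, 0.46, because no spot on A, B or C reached the signal rule. At S10-12 the level was -2.52 on A, -1.04 on B and 0.25 on D, with both spots of C under the rule.

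Membrane A was highest at S6-7, membrane B at S10-12, membrane C at S2-3 and membrane D at S5, so the membranes did not share 1 interval of highest trn signal. The signals under the rule were low but not at 0. The mean net intensity of clone 10_F10 at S8-9 was 0.105 of RP49 on A, 0.157 on B and 0.0587 on C. On these 3 membranes 13.2%, 16.0% and 11.8% of the 144 solvent spots, which carry no DNA, had a net intensity at least as high. At S6-7, where all spots of trn passed, the shares of solvent spots were 9.72% on A, 1.39% on B and 0% on C and D. On membrane A at S6-7, 34.7% of the solvent spots passed the signal rule themselves, and at S5 29.9% did. What part this background has in the values of both genes on these membranes was not tested.

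**Figure D1:**
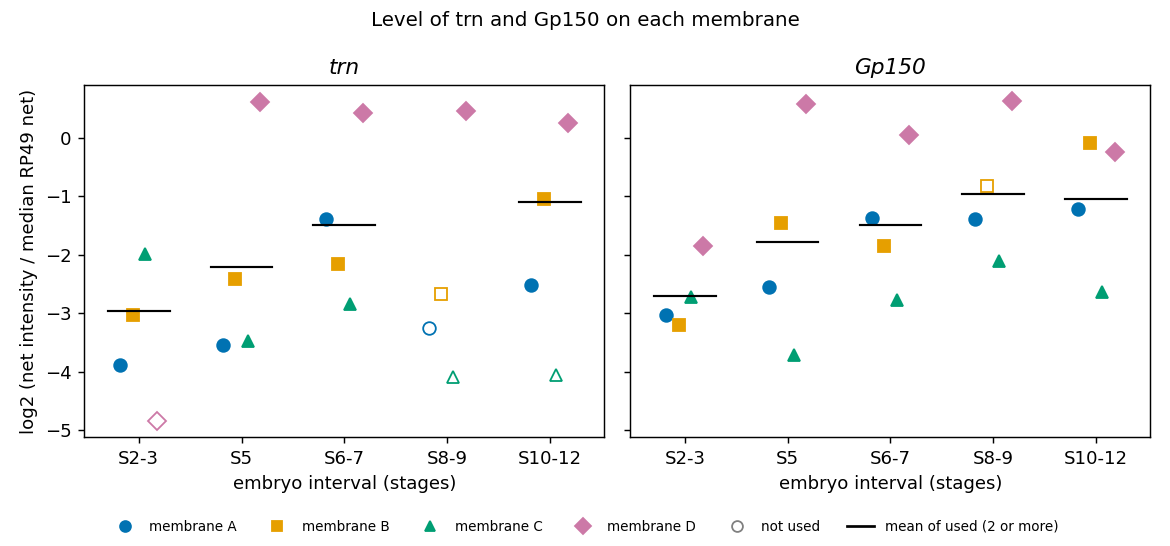
Levels of trn (left) and Gp150 (right) as log2 of the net intensity over the median RP49 net intensity, by embryo interval. Each symbol is 1 membrane, hollow symbols are values of the shared clone that were not used in the tests, and black lines are means over the used membranes where there were 2 or more. Membrane D stands above membranes A to C at S5, S6-7 and S8-9 for both genes, and Gp150 has a used value on 19 of the 20 membranes.

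The value of trn on membrane D was a mean over its clones that passed. Clone 10_F10, which is the clone on the other membranes, had on D a net intensity of 0.0347 of RP49 at S2-3, where both spots failed the signal rule, and 0.852, 0.471, 0.502 and 0.641 in the later intervals in stage order. On the log2 scale these later values were -0.23, -1.09, -0.99 and -0.64. Membrane D was therefore the highest membrane for this clone at each interval after S2-3, also without the other clones. The S2-3 signals on D were under the rule, so no fold change from S2-3 is given for the clones on this membrane.

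The other clones of trn were also under the signal rule at S2-3 on membrane D. Clone 25_D06 had mean values of 1.11, 1.24, 2.46 and 0.878 of RP49 in the later intervals, with its highest value at S8-9, and 0.288 under the rule at S2-3. Clone 26_F06 had mean values of 2.20, 2.30, 0.910 and 2.04 of RP49 in the same order, with the lowest of these at S8-9, and 0.638 under the rule at S2-3. The clones of 1 gene thus moved in opposite directions between S6-7 and S8-9 on the same membrane, while clone 10_F10 went from 0.471 to 0.502. At S8-9, 1 of the 2 spots of clone 26_F06 failed the signal rule, at 0.649 of RP49, which lay between its S2-3 spots at 0.589 and 0.687. The mean local background at S8-9 was 0.0790 around clone 26_F06, 0.0744 around clone 25_D06 and 0.0160 around clone 10_F10. The part of the local background in this difference was not tested.

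**Figure D2:**
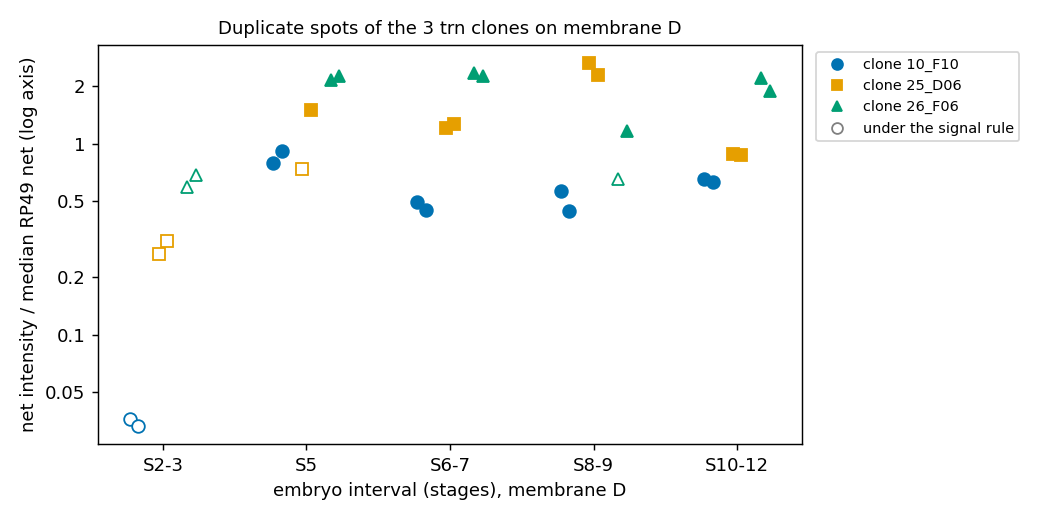
Net intensity over the median RP49 net intensity (log axis) of the duplicate spots of the 3 trn clones on membrane D, by embryo interval. Hollow symbols are spots under the signal rule, which include all 6 at S2-3, and clones 25_D06 and 26_F06 change places at S8-9.

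Gp150 was measured more evenly. At S2-3 its level was -3.02 on A, -3.20 on B, -2.73 on C and -1.85 on D, a mean of -2.70 ± 0.60 (SD, n = 4). At S5 it was -2.54 on A, -1.46 on B, -3.72 on C and 0.58 on D, so that the S5 membranes spanned the whole S2-3 range and reached beyond it on both sides. At S6-7 the level of Gp150 was -1.37 on A, -1.86 on B, -2.77 on C and 0.05 on D. Membranes A and D at S6-7 lay above the range of S2-3, membrane C lay inside it and membrane B at its upper end.

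At S8-9 Gp150 was at -1.39 on A, -2.10 on C and 0.63 on D. Membrane B, whose duplicates had a coefficient of variation of 0.508 and were left out of the fit, was at -0.83. At S10-12 the levels were -1.22 on A, -0.10 on B, -2.64 on C and -0.25 on D. The mean was -0.95 ± 1.42 (SD, n = 3) at S8-9 and -1.05 ± 1.17 (SD, n = 4) at S10-12. Membranes A, B and D thus lay above every S2-3 value at S10-12, and membrane C lay inside the S2-3 range in both intervals. On A, B and C at S8-9, fewer solvent spots reached the signal of Gp150 than that of trn, between 0% and 0.694% of them on each. On D 0% of the solvent spots reached the signal of either gene.

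The question the study put to the membranes was which genes change after S2-3. Using Significance Analysis of Microarrays, the study had trn among its up-regulated genes, in a group with maximal activity at S6-7. It also reported good correlation of the trn arrays with in situ hybridization. The fit used here differs from the study's in test, filters and scaling. In the fit of limma over all 20 membranes, with p-values adjusted over every feature tested in a comparison, neither gene passed an adjusted p of 0.05 at any interval. Gp150 differed from S2-3 by 0.91 (SE 0.85, adjusted p = 0.594) at S5 and 1.21 (SE 0.85, adjusted p = 0.810) at S6-7 on the log2 scale. The difference was 1.74 (SE 0.91, adjusted p = 0.323) at S8-9, and S10-12 had 1.65 (SE 0.85, adjusted p = 0.339). The 95% confidence intervals reached from -0.13 to 3.62 at S8-9 and from -0.10 to 3.39 at S10-12. For trn the differences were 0.76 (SE 0.99) at S5, 1.47 (SE 0.98) at S6-7 and 1.86 (SE 1.06) at S10-12, with intervals from -0.34 to 4.05 at S10-12. At S8-9 trn could not be tested, having a value on only 1 membrane. The S2-3 mean of trn lacked membrane D, which entered its later means. In these comparisons 5.03%, 5.33%, 7.1% and 3.25% of all features tested passed as higher, with 0% as lower.

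Membranes of the same letter share a layout, and membrane D has another layout than A to C, so the letter was also entered as a technical block. The block sets A, B and C apart from each other too, for which the layout of D is no reason. With this replicate block Gp150 passed at S8-9 (1.78, SE 0.50, 3.43-fold, adjusted p = 0.00670) and at S10-12 (1.65, SE 0.46, 3.13-fold, adjusted p = 0.00675). It did not pass at S5 (0.91, adjusted p = 0.117) or at S6-7 (1.21, adjusted p = 0.0614). The block called 43.9% of all features higher at S8-9 and 45.5% at S10-12, so a large share of the library passed beside Gp150. As lower it called 1.26% of the features at S5, 0% in the gastrula, 0.645% at S8-9 and 2.6% at S10-12. For trn the blocked differences were 0.05 (adjusted p = 0.936) at S5, 0.77 (adjusted p = 0.328) at S6-7 and 0.90 (adjusted p = 0.209) at S10-12, where 37.7%, 20.8% and 45.5% of all features were called higher. The blocked intervals of trn reached from -1.10 to 1.21 at S5 and from -0.35 to 2.14 at S10-12.

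Between 78.7% and 89.0% of the features tested had a higher mean over RP49 in a later interval than at S2-3. The library was enriched for cDNAs higher in the gastrula than at S2-3, so the shares and medians of all features do not describe genes at large. The median difference of all features from S2-3 was 0.83, 0.56, 0.95 and 1.09 in stage order. Gp150 lay 0.08, 0.66, 0.80 and 0.56 above this median in the same order. The trn difference lay 0.08 below it at S5 and 0.91 and 0.77 above it at S6-7 and S10-12, with membrane D only in the later means. With the block, trn stood at -0.92, 0.10 and -0.26 from the median of that fit at S5, S6-7 and S10-12. Gp150 stood at -0.06, 0.55, 0.75 and 0.49 from it in stage order. By size of the difference without the block, Gp150 was number 74 of 159 features at S5 and 35 of 169 at S6-7. It was number 30 of 155 at S8-9 and 36 of 154 at S10-12. The ranks of trn were 86 at S5, 25 at S6-7 and 28 at S10-12, and with the block they were 126, 74 and 93. Each membrane was also scaled to the 75th percentile of its library spots in place of RP49. Gp150 with the block then differed from S2-3 by 0.46 (adjusted p = 0.431) at S8-9 and 0.53 (adjusted p = 0.350) at S10-12. It no longer passed. The median of all features in that fit was -0.32 and -0.10, and Gp150 lay 0.78 and 0.63 above it.

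**Figure D3:**
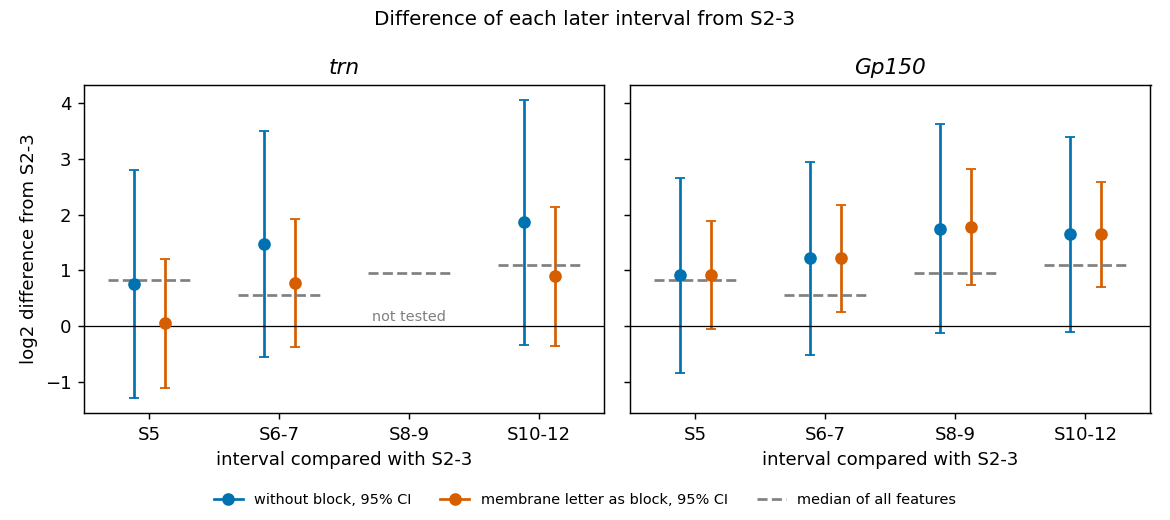
Log2 difference of each later interval from S2-3 for trn (left) and Gp150 (right) with 95% confidence intervals, without a block (blue) and with the membrane letter as a block (orange). Dashed lines are the median difference of all features in the fit without the block. The blocked intervals of Gp150 exclude 0 at S6-7, S8-9 and S10-12 before adjustment, and those of trn include 0 at each interval tested.

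Within a letter, the differences from S2-3 show which membranes carry these values. Gp150 was higher on A by 0.48, 1.66, 1.63 and 1.80 in stage order, and on D by 2.42, 1.89, 2.47 and 1.60. On B the differences were 1.74 at S5, 1.34 at S6-7 and 3.11 at S10-12. On C they were -0.99, -0.04, 0.63 and 0.09. The level of Gp150 was higher than at S2-3 in 13 of the 15 letter and interval pairs measured, both exceptions on membrane C, and it exceeded the median feature of the same membranes in 12 of 15. Of all features, 64.7% to 81.7% were above S2-3 on A, 74.6% to 93.2% on B and 88.5% to 95.5% on D. On C this share was 29.0% to 57.8%. The S2-3 value of Gp150 on C rests on 1 spot at 0.151 of RP49, whose duplicate at 0.0468 failed the rule. With both spots and no signal rule the differences on C were -0.38, 0.57, 1.24 and 0.70, and 15 of 16 pairs were higher. The share of all features without the signal rule was not computed. For trn 6 of 8 pairs were higher than S2-3, to be read beside the shares of A to C above, and 4 of 8 exceeded the median feature. Its differences were 0.34, 2.49 and 1.36 on A and 0.61, 0.86 and 1.98 on B at S5, S6-7 and S10-12, and -1.49 and -0.85 on C at S5 and S6-7. The 1 usable S2-3 spot of trn on C, at 0.253 of RP49, had a duplicate at 0.0722 that failed the rule.

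The order of the levels of Gp150 from lowest to highest mean was S2-3, S5, S6-7, S10-12 and S8-9. None of the neighbours in this order differed beyond the spread of the membranes, with or without the block. The largest difference among the later intervals was that of S8-9 from S5, 0.83 (SE 0.91, adjusted p = 0.994), or 0.87 (SE 0.50, adjusted p = 0.333) with the block. Without the block 0% of the features were called higher in that comparison and 0.485% lower, and with it 2.91% and 1.94%. In the other pairs of later intervals the share called in either direction was between 0% and 4.72%. For trn the order of the means was S2-3 (-2.96 ± 0.95, SD, n = 3), S5 (-2.21 ± 1.94, SD, n = 4), S6-7 and S10-12 (-1.10 ± 1.39, SD, n = 3), and no difference between neighbours passed with or without the block. The difference of S6-7 from S5 was 0.72 (SE 0.91, adjusted p = 0.981), or 0.72 (SE 0.49, adjusted p = 0.395) with the block. Over membranes A to C alone, the mean of trn was -2.96 at S2-3, -3.14 at S5 and -2.13 at S6-7. At S10-12 it was -1.78 over A and B only, so it is not comparable with these. Membrane C, under the rule there, stood at -4.06.

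Both clones that are shared by all membranes were also set against each other, since any scaling cancels in the ratio of 2 signals on 1 membrane. The size of such a ratio depends on the clones, and only its change between intervals is described. The net intensity of trn over that of Gp150 was 0.550 on A, 1.13 on B, 1.65 on C and 0.125 on D at S2-3. At S5 it was 0.50, 0.596, 0.920 and 0.571, and at S6-7 it was 0.984, 0.811, 0.956 and 0.457. At S8-9 the ratio was 0.275, 0.280, 0.252 and 0.325, the narrowest range of the 5 intervals, and at S10-12 it was 0.407, 0.520, 0.375 and 0.762.

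All 4 ratios at S8-9 lay below all 4 ratios at S5, at S6-7 and at S10-12. Ratios of other pairs of genes were not computed, so how common such a separation is was not tested. Compared within a letter, the ratio at S8-9 was lower than at S2-3 on 3 of 4 membranes and higher on D, where the trn signal at S2-3 failed the rule. The signal of trn on A, B and C at S8-9 failed it too, so these 3 ratios rest on weak spots. On D, where both clones passed, the ratio moved from 0.457 at S6-7 to 0.325 at S8-9 and 0.762 at S10-12. Between S6-7 and S8-9 clone 10_F10 of trn went from 0.382 to 0.105 of RP49 on A and from 0.140 to 0.0587 on C, while Gp150 went from 0.388 to 0.381 on A and from 0.147 to 0.233 on C. On B clone 10_F10 went from 0.224 to 0.157 and Gp150 from 0.276 to 0.561, and on D they went from 0.471 to 0.502 and from 1.03 to 1.54. The ratio was thus lower on B, C and D with a higher Gp150 signal over RP49, and on D the trn signal over RP49 was not lower. In net intensity, Gp150 went from 0.0151 to 0.0147 on B, from 0.0983 to 0.0176 on C and from 0.0431 to 0.0740 on D. The RP49 median went from 0.0547 to 0.0262 on B and from 0.669 to 0.0755 on C, so the Gp150 rise on these membranes depends on the scaling. The other clones of trn did not move in 1 direction from S6-7 to S8-9, as given above for membrane D.

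**Figure D4:**
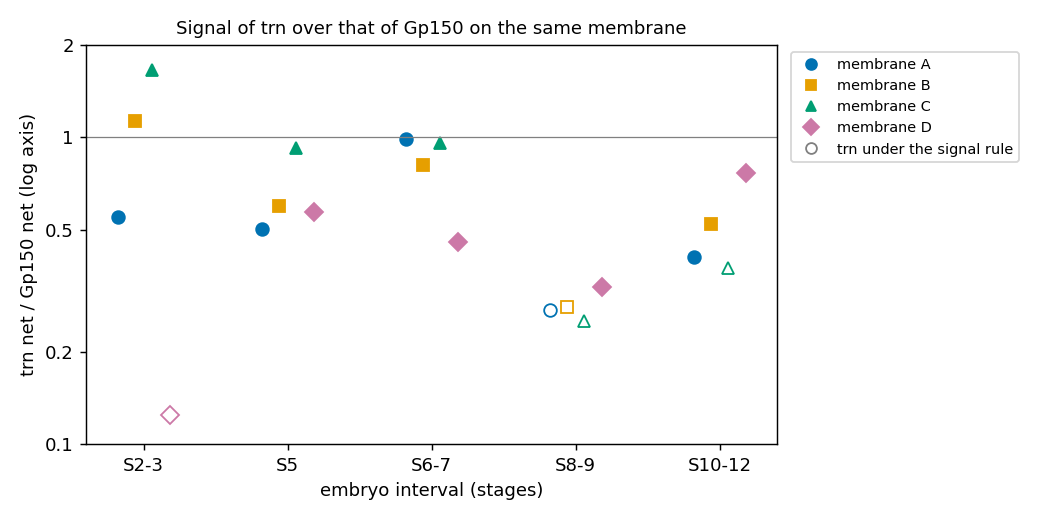
Net intensity of the shared trn clone divided by that of the Gp150 clone on the same membrane (log axis), by embryo interval. Each symbol is 1 membrane and hollow symbols mark trn signals under the signal rule. The 4 ratios at S8-9 lie between 0.252 and 0.325, below those of S5, S6-7 and S10-12, and ratios of other gene pairs were not computed.

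Of a list of 30 leucine-rich-repeat proteins 4 were measured, the members themselves, CG5888 and CG10307. CG5888 had a usable S2-3 value on membrane A alone, -3.51, with 1 of its 8 spots passing, and was at -1.45, -1.63, -1.62 and -2.05 on that membrane in the later intervals. All 8 of its spots passed at S5 and at S8-9. CG10307 was printed on membrane D only, where it was at -2.13 at S2-3 and at -0.18, -0.10, 0.09 and 0.33 in the later intervals. On these membranes both were higher in each later interval than at S2-3, but they had too few membranes at S2-3 for a test. Of all features, 64.7% to 81.7% were also above S2-3 on A and 88.5% to 95.5% on D.

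Of 20 genes of Notch signaling, with which Gp150 has been linked, 7 were printed and 4 could be tested. Tom, a Bearded family protein that limits Notch ligand activity, passed at every interval without the block, with differences of 2.74, 4.00, 5.04 and 3.01 in stage order. Its relative Ocho passed in the last interval (4.19, adjusted p = 0.0272). The median of the tested members of the list was 1.40, 1.05, 2.45 and 2.26, beside the medians of all features given above. Without the block 1, 1, 1 and 2 of the 4 passed as higher, where 5.03%, 5.33%, 7.1% and 3.25% of all features did. With the block 3, 2, 4 and 4 passed, also BobA and the transcriptional regulator spen, where 37.7%, 20.8%, 43.9% and 45.5% of all features did, and none of the 4 passed as lower. The metalloprotease kuz, which cleaves Notch, was under the rule on all 8 spots at S2-3, and nmo, a kinase, was usable there only on D.

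Of 10 genes of phosphatase and kinase signaling at the membrane, Src42A, drl and Egfr were printed, and none could be tested because at most 1 S2-3 membrane measured each. Ptp10D, the phosphatase that acts on Gp150, was on this list, but no library spot carried its name. Src42A, a Src family kinase, had at S8-9 a usable value on D only, 0.63, as did trn. Of 19 other adhesion and guidance proteins 8 were printed. Ama, an immunoglobulin protein, and Nrt, the receptor-like protein it binds, stood far above the members at S5, with differences of 4.67 and 4.60 from S2-3. Ama also passed at the other intervals, and Lac, an immunoglobulin protein of septate junctions, passed at S6-7 (3.30) and S8-9 (2.74). The slit receptor lea, whose extracellular part is built of immunoglobulin and fibronectin domains, differed by 0.67 to 2.45 and did not pass without the block. The immunoglobulin protein beat-IIIc differed by 0.21, 0.23, 0.46 and 0.77, each below the median of all features, and did not pass. In all 2 of 4, 2 of 5, 2 of 5 and 1 of 5 tested passed as higher without the block and 2, 3, 3 and 4 with it, to be read beside the same shares of all features. The median of the tested adhesion and guidance genes was 2.63, 2.46, 2.17 and 2.27 in stage order.

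The genes whose levels ran most like those of the members were found by Pearson's r over the membranes that measured both, with 12 or more required. For trn these were the kinase nmo (r = 0.98, 12 membranes), the chromatin protein HmgZ (0.95, 14 membranes) and lea (0.95, 13 membranes), out of 124 genes. For Gp150 they were CG32982 (0.97, 12 membranes), CG2835, the G protein alpha subunit named Galphas in RefSeq (0.96, 12 membranes), and CG6327 (0.95, 16 membranes), out of 190. The levels of trn and Gp150 had an r of 0.92 over 15 membranes, which was number 12 in the order for trn and number 16 in that for Gp150. The median r was 0.73 over all genes compared with trn and 0.79 over those compared with Gp150, so a high r was common. The membranes share the RP49 scaling and the offset of membrane D. Over membranes A to C the r of trn with Gp150 was 0.79, and with scaling to the 75th percentile it was 0.70. With that scaling nmo, HmgZ and lea had 0.92, 0.84 and 0.82 with trn. CG32982, CG2835 and CG6327 had 0.83, 0.79 and 0.69 with Gp150. Over A to C the values were 0.92, 0.91 and 0.68 for trn and 0.94, 0.93 and 0.86 for Gp150, in the same gene order.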

How the data were processed

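The authors printed PCR products of the clones in duplicate on nylon membranes, hybridized 32P-labeled cDNA and measured spots in VersArray Analyzer. The deposited intensity values are the signal mean, the local background mean and SD, and the net intensity of each spot, not normalized. The net value equals signal minus background within 0.0005 for 28.5% of the 20190 spots and is 0 for 1504. The normalized table of the authors has unnamed rows and was not used. Here net values were divided by the median RP49 of the membrane, clones of a gene averaged and log2 taken. The methods' scaling to RP49 and dap was an alternative, since membrane D carries no dap, and their qcom filter was not applied.

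Differences were tested by lmFit and eBayes of limma 3.58.1 (R 4.3.3) on all 20 membranes with a mean per interval, for features on at least 2 membranes of both intervals, with Benjamini-Hochberg adjustment per comparison. The letter was a technical block because membrane D has its own layout. That layout does not bear on differences among A, B and C, which the block also takes out, and a fit with only D set apart was not run. With interval means removed, same-letter membranes correlated with those of S2-3 over 0.1 in 2 of 4 letters for S5, 4 for S6-7, 3 for S8-9 and 4 for S10-12. Correlations between different letters were not computed, so these values cannot show that membranes pair by letter. Named genes are the members, the printed genes of 4 lists and the 3 genes most like each member. Members and lists were chosen with earlier results of these data known. The alternatives were other scalings (mean or all spots of RP49, dap, RP49 with dap or with actin and tubulin, the 75th percentile, quantiles), normexp with an offset of 50, other signal, duplicate and clone rules, only the 2 intervals compared, each membrane letter left out of every interval and the block. The trn clone alone, and the block with the 75th percentile or without 1 letter, were added after seeing the data. Figures were drawn with matplotlib. Sequences of the clones were not used here.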

Additional observations from a re-analysis of the deposited data

How the results depend on the processing

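Without the block, neither gene passed under any alternative except Gp150 at S10-12 with RP49 and dap scaling, which uses membranes A to C (1.81, adjusted p = 0.0196). That run called 27 features higher. The replicate block made Gp150 pass at S8-9 (1.78) and S10-12 (1.65). Scaling to the 75th percentile turned the S5 difference to -0.63 for trn and -0.30 for Gp150, beside a median of -0.36 over all features. With the block as well, chosen after seeing the data, the S5 differences of trn and Gp150 were -0.95 and -0.30, and trn at S10-12 was -0.17. Leaving out 1 membrane letter in every interval, with or without the block, the difference ranged from -0.26 to 1.67 for trn at S5, 0.06 to 2.41 at S6-7 and 0.24 to 2.35 at S10-12. For Gp150 it ranged from 0.41 to 1.55 at S5, 0.99 to 1.63 at S6-7, and from 1.24 to 2.31 at S8-9 and 1.16 to 2.17 at S10-12. With the block, Gp150 at S8-9 passed without each letter in turn (adjusted p from 0.00453 to 0.0377), in runs that called 38 to 65 features higher. At S10-12 it did not pass without the B membranes (1.16, adjusted p = 0.0987). Without the C membranes, Gp150 also passed at S5 (adjusted p = 0.0246) and S6-7 (adjusted p = 0.0197), and trn at S10-12 (adjusted p = 0.0425). Those runs called 48, 42 and 74 features higher. The member differences were 1.55, 1.63 and 1.48 in that order, beside medians of 1.04, 0.85 and 1.27 over all features. Without the D membranes the S5 difference of trn was -0.18. The cause of these changes was not tested. A rule of 2 background SDs left no test of Gp150 at S8-9, and trn could not be tested there under the rule used. Features called higher numbered 8, 9, 11 and 5 in stage order, and 60, 35, 68 and 70 with the block. Across the other alternatives without it they ranged from 0 to 38, 0 to 17, 0 to 18 and 0 to 27. Weak spots, 4 membranes of 1 sample per interval and the standing of membrane D limit what these arrays can resolve.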
